A study of Mus musculus with 6 samples.

Results

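Sod1, Sod2, Cat, Gpx1, Gpx3, Nqo1, Txnrd1, Srxn1, Gclc and Gclm are 10 genes that defend cells against superoxide and peroxide, several of them targets of the transcription factor NRF2. They were taken by gene symbol from a table of 54532 genes. The rule uses no measured value, but the set was put together with earlier results of these data known. All 10 were among the 15816 genes with enough reads to be tested.

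RNA from whole kidneys was sequenced in 3 wild-type (WT) mice and 3 Trpm2-/- mice (labelled KO 1, KO 2 and KO 4) of the strain C57BL/6J, at an age of 6 to 8 weeks by the sample labels. TRPM2 is a calcium-permeable cation channel that opens under oxidative stress. Every mouse, WT included, had received cisplatin at 18 mg/kg and was killed 72 h later, so the data hold no kidney without cisplatin, and each comparison is between genotypes within the same injury. Cisplatin is a platinum drug against cancer that accumulates in proximal tubule cells and injures them. The Trpm2-/- allele is a germline deletion of 2 exons in all cells, which leaves a protein without a working channel. The WT mice were bought and the Trpm2-/- line came from another institution, so genotype and colony of origin cannot be told apart. The p-values below weigh the difference between genotypes against variation among mice, of which there were 3 of each genotype. For single genes that variation was estimated with the help of all genes tested. For ratios the p-values came from regrouping the mice.

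Superoxide leaks from the respiratory chain and is converted to hydrogen peroxide by the superoxide dismutases. Catalase and the glutathione peroxidases reduce the peroxide to water, the peroxidases at the cost of glutathione, and thioredoxin reductase and sulfiredoxin keep the parallel thioredoxin and peroxiredoxin system running. NRF2 is held in the cytoplasm and degraded through KEAP1 until oxidants or electrophiles modify KEAP1, and it then binds antioxidant response elements in genes such as Nqo1, Gclc, Gclm, Txnrd1 and Srxn1. The kidney cortex, in particular the proximal tubule, is rich in mitochondria and peroxisomes and is the main source of the glutathione peroxidase of blood plasma, GPX3.

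The libraries held 14053307 to 17150089 counts on genes, and each member had at least 2076 reads in every mouse. The labelled tissue was checked on its markers, and genes of proximal tubule, thick ascending limb and collecting duct were present in all 6 libraries. Trpm2 itself had 5, 5 and 27 reads in WT 1, 2 and 3 and 10, 16 and 20 reads in KO 1, 2 and 4. A count over the whole gene includes the exons that remain in the allele, so Trpm2 does not check the genotype labels. Markers of the proximal tubule moved with genotype, since 9 of 10 fell in Trpm2-/- kidneys and only the bicarbonate cotransporter gene Slc4a4 was not called. Of all genes tested, 7.28% fell and 4.74% rose. The summed level of the 10 markers lay between 8344 and 10848 CPM (counts scaled to a library of 1000000) in WT. In Trpm2-/- kidneys it lay between 2813 and 4223 CPM. Kap made up most of that sum, with means of 6262 of 9741 CPM in WT and 2043 of 3440 CPM in Trpm2-/- kidneys. In whole tissue, fewer cells of a type and less RNA per cell cannot be told apart, and this holds for every gene below. Of 7 markers of injured tubules, the keratin gene Krt20 rose and the others were not called, with sums of 17632 to 19727 CPM in WT and 19898 to 27928 CPM in Trpm2-/- kidneys. The mitochondrial genome took 4.43% to 4.72% of counts in WT and 7.91% to 11.04% in Trpm2-/- kidneys. KO 4, the library with the highest mitochondrial share, also had the highest sums of podocyte and endothelial markers, at 385 and 142 CPM.

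Of the 10 defence genes, 4 fell in Trpm2-/- kidneys at an adjusted p under 0.05 (Sod1, Sod2, Gpx1 and Nqo1), 0 rose and 6 were not called. The test was edgeR's quasi-likelihood F test, with p adjusted by Benjamini and Hochberg's method over all 15816 genes, of which 7.28% were called lower and 4.74% higher. At an unadjusted p under 0.05, 1 member (Txnrd1) was higher, and DESeq2 and limma-voom each called 1 member higher, again Txnrd1. DESeq2 called 6 members lower and limma-voom 5. The median log2 fold change (Trpm2-/- minus WT) was -0.57 over the members and 0.02 over all genes tested, and 7 of 10 members were below 0. In 6 members every Trpm2-/- mouse lay below every WT mouse, which held for 16.8% of all genes, and in 1 member every Trpm2-/- mouse lay above, which held for 16.7%. At a fold change above 2 with an unadjusted p under 0.05, a rule that called 4.10% of all genes lower, Gpx1 was the 1 member called, and 0 members were called higher by edgeR under that rule, against 3.50% of all genes. The part of the proximal tubule markers and of the mitochondrial share in these counts was not tested. When the mitochondrial genome was left out before normalisation, the members' median was -0.56 and 4 were again lower, and 4 were also lower without KO 4. Without WT 2 or without WT 3, 2 members were lower.

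**Figure D1:**
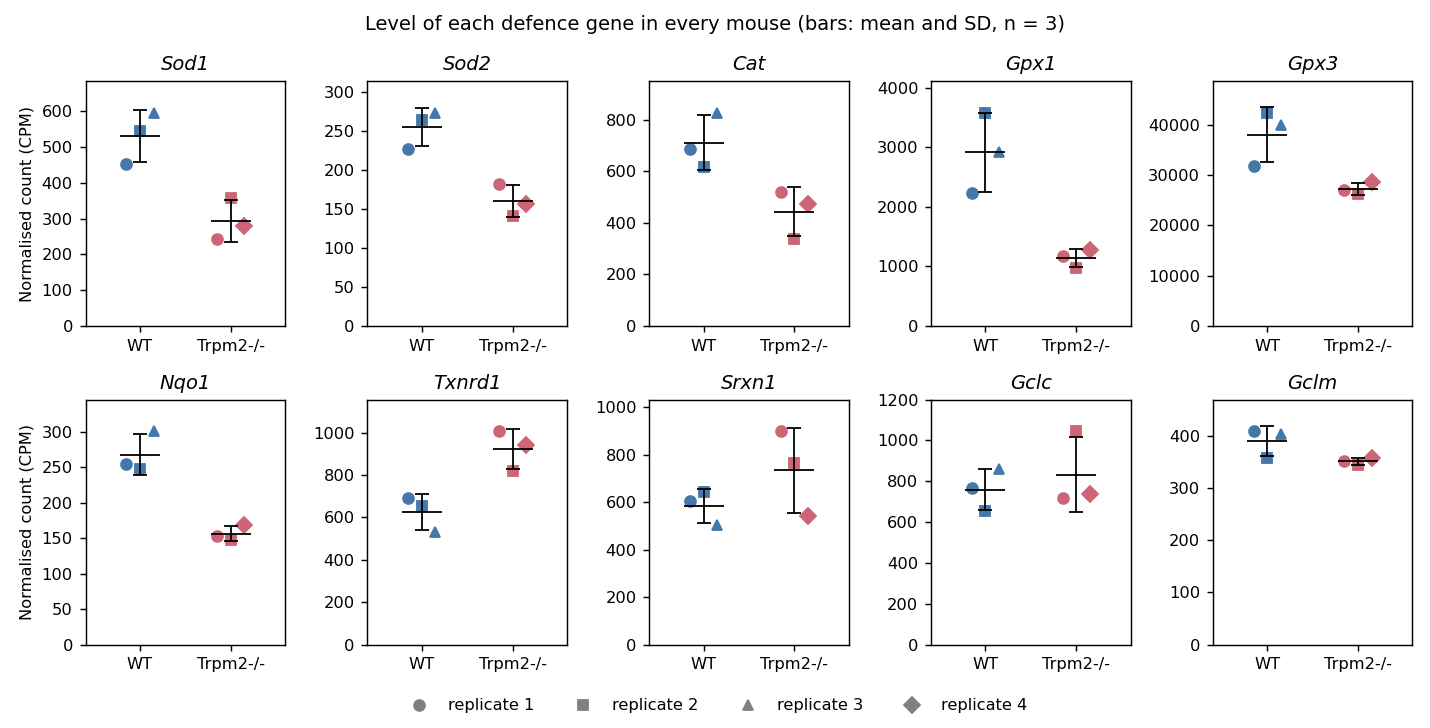
Level of each of the 10 defence genes in every mouse, in normalised counts (CPM) on linear axes that start at 0. Blue symbols are WT and red symbols Trpm2-/- kidneys, the marker shape gives the replicate number, and bars show the mean and SD of 3 mice; the groups are apart for Sod1, Sod2, Cat, Gpx1, Gpx3, Nqo1 and Txnrd1 and overlap for Srxn1, Gclc and Gclm.

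Both superoxide dismutases fell. Sod1 (ENSMUSG00000022982, plus strand, chr16:90220754-90226329 on GRCm38) encodes the copper-zinc dismutase of the cytosol and the intermembrane space of mitochondria. Its level, as CPM on TMM-normalised library sizes, was 451, 546 and 595 in WT 1, 2 and 3 and 242, 358 and 281 in KO 1, 2 and 4. The highest Trpm2-/- value stayed below the lowest WT value. Means were 531 ± 73.0 CPM in WT and 293 ± 59.0 CPM in Trpm2-/- kidneys (SD, n = 3), a log2 fold change of -0.85 (SE 0.182, adjusted p = 0.0171 by edgeR). The call was lost without WT 2 (adjusted p = 0.0705) and without WT 3 (adjusted p = 0.0839), in the same test. Sod1 overlaps the gene Scaf4 on the other strand, which had 4149 reads over the 6 libraries. The strandedness of the libraries is not given in the sources used here, so reads of these genes may not have been told apart where they overlap.

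Sod2 (ENSMUSG00000006818, plus strand, chr17:13006846-13040063) encodes the manganese dismutase of the mitochondrial matrix. Sod2 had 227, 264 and 274 CPM in the WT mice and 182, 142 and 157 CPM in the Trpm2-/- mice, again without overlap. The log2 fold change of Sod2 was -0.67 (SE 0.146, edgeR adjusted p = 0.0189), from 255 ± 24.4 to 160 ± 20.6 CPM. Its call too was lost without WT 2 (edgeR adjusted p = 0.0883) or WT 3 (0.101). Of the 75-base windows of Sod2 transcripts, 16.16% also occur in transcripts of 30 other genes, so some of its reads may have been shared with them by the authors' counting. The matrix and cytosolic enzymes kept no fixed proportion in the Trpm2-/- mice. The ratio of Sod2 to Sod1, per length, was 0.200, 0.192 and 0.182 in the WT mice and 0.299, 0.157 and 0.222 in KO 1, 2 and 4. The WT values lay inside the range of the Trpm2-/- values, and an exact two-sided permutation test of the mean log2 ratio gave p = 0.7 (0.7 after adjustment over 3 ratios).

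Among the enzymes that remove hydrogen peroxide, Gpx1 fell and Gpx3 and Cat were not called. Gpx1 (ENSMUSG00000063856, plus strand, chr9:108338903-108340343) encodes the glutathione peroxidase of cytosol and mitochondria, and Gpx3 (ENSMUSG00000018339, plus strand, chr11:54902453-54910377) the secreted one. Both are selenoproteins, as is the thioredoxin reductase encoded by Txnrd1. Selenocysteine is set in these proteins by a TGA codon that elsewhere ends translation, and it sits in the active site. The codon is shown here because it is the sequence feature that these 3 members share and the other 7 lack. It is in capitals in the coding strand from GENCODE release M21, with GRCm38 positions chr9:108339430-108339474 for Gpx1, chr11:54907235-54907279 for Gpx3 and chr10:82896016-82896045 for Txnrd1, all on the plus strand.
Gpx1: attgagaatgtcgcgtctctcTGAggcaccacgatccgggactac
Gpx3: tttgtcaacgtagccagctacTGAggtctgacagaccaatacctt
Txnrd1: gacatcctccagtctggctgcTGAggttaa
The codon is number 47 of 201 in Gpx1 and number 73 of 226 in Gpx3. In Txnrd1 it is number 498 of 499, the last but one before the stop codon that ends the line.

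Gpx1 had 2238, 3575 and 2923 CPM in WT 1, 2 and 3 and 1178, 980 and 1277 CPM in KO 1, 2 and 4. The lowest WT kidney stood well above the highest Trpm2-/- kidney. The mean went from 2912 ± 668 to 1145 ± 151 CPM, which is 0.393 times the WT level, with a log2 fold change of -1.35 (SE 0.209, edgeR adjusted p = 0.00490). Counted from the lowest log2 fold change, Gpx1 ranked 357 of 15816 genes. Gpx1 was called lower in all 17 alternative analyses that tested it with an adjusted p, with log2 fold changes of -1.51 to -1.18.

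Gpx3 was the most abundant member by far. It had 31787, 42330 and 39992 CPM in the WT mice and 27104, 26239 and 28538 CPM in the Trpm2-/- mice, so that the groups did not overlap. The log2 fold change of Gpx3 was -0.48 (SE 0.219), which did not pass the test (edgeR adjusted p = 0.186), and of the 17 alternatives DESeq2 alone called it (adjusted p = 0.0186). Gpx3 took 3.65% ± 0.376 of all counts in WT and 2.82% ± 0.150 in Trpm2-/- kidneys. Within the 10 members its share was 84.3% ± 0.810 in WT and 84.4% ± 0.765 in Trpm2-/- kidneys (SD, n = 3). The secreted peroxidase stood higher against the intracellular one in every Trpm2-/- mouse. The ratio of Gpx3 to Gpx1, per length, was 11.3, 9.41 and 10.9 in the WT mice and 18.3, 21.3 and 17.8 in the Trpm2-/- mice. That difference of 0.86 in the mean log2 ratio had an exact two-sided permutation p = 0.1, the smallest that 3 mice against 3 allow, and 0.3 after adjustment over 3 ratios. A ratio within a library does not depend on how libraries are scaled.

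Cat (ENSMUSG00000027187, minus strand, chr2:103453849-103485160) encodes catalase, which breaks down hydrogen peroxide in peroxisomes without glutathione. Cat had 688, 616 and 826 CPM in the WT mice and 519, 337 and 474 CPM in the Trpm2-/- mice. The groups did not overlap, and KO 2 was the lowest. The log2 fold change of Cat was -0.68 (SE 0.194) with an edgeR adjusted p = 0.0503, just outside the threshold. Cat was called lower by DESeq2 (adjusted p = 0.00545), by limma-voom (adjusted p = 0.0447) and by edgeR without a filter on low counts (adjusted p = 0.00246), and in none of the other 14 alternatives.

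**Figure D2:**
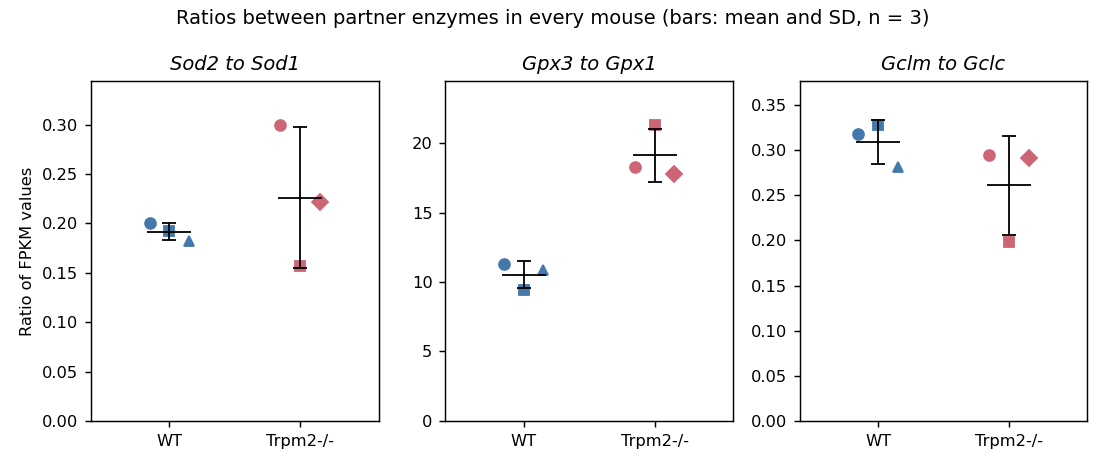
Ratios of FPKM values between partner enzymes in each mouse (Sod2 to Sod1, Gpx3 to Gpx1, Gclm to Gclc), on linear axes that start at 0, with the mean and SD of 3 mice as bars. The Gpx3 to Gpx1 ratio is 9.41 to 11.3 in the WT and 17.8 to 21.3 in the Trpm2-/- kidneys, and the other ratios overlap between genotypes.

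Both members of the thioredoxin branch had log2 fold changes above 0, and neither passed the test. Txnrd1 (ENSMUSG00000020250, plus strand, chr10:82833951-82897712) encodes the cytosolic reductase that recharges thioredoxin with electrons from NADPH. Txnrd1 had 692, 653 and 532 CPM in WT 1, 2 and 3 and 1005, 818 and 939 CPM in KO 1, 2 and 4. It is the 1 member in which each Trpm2-/- kidney was above each WT kidney. Its log2 fold change was 0.56 (SE 0.162), not called at an edgeR adjusted p = 0.0533, and over the 17 alternatives the adjusted p ran from 0.00968 to 0.290, with 6 alternatives calling it higher.

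Srxn1 (ENSMUSG00000032802, plus strand, chr2:152105516-152111376) encodes sulfiredoxin, which rescues peroxiredoxins that peroxide has over-oxidised. Srxn1 had 604, 643 and 505 CPM in the WT mice and 898, 765 and 542 CPM in the Trpm2-/- mice. KO 4 lay within the WT range and the other Trpm2-/- kidneys lay above it. The log2 fold change of Srxn1 was 0.33 (SE 0.200, edgeR adjusted p = 0.314), and it was called in none of the 17 alternatives.

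The subunits of glutamate-cysteine ligase, which makes the first and rate-limiting bond of glutathione, showed no change that passed the test. Gclc (ENSMUSG00000032350, plus strand, chr9:77754535-77794485), the catalytic subunit, had 767, 653 and 857 CPM in the WT mice and 715, 1044 and 737 CPM in the Trpm2-/- mice. KO 2 alone stood above the WT range, and without it the log2 fold change of Gclc turned from 0.13 (SE 0.190, edgeR adjusted p = 0.700) to -0.066. Gclm (ENSMUSG00000028124, plus strand, chr3:122245557-122270732), the modifier subunit that makes the catalytic one more efficient, was the steadiest member. Gclm had 408, 357 and 403 CPM in the WT mice and 351, 345 and 358 CPM in the Trpm2-/- mice, a log2 fold change of -0.15 (SE 0.130, edgeR adjusted p = 0.497). The ratio of Gclm to Gclc, per length, was 0.309 ± 0.0243 in WT and 0.261 ± 0.0546 in Trpm2-/- kidneys, with KO 2 lowest at 0.198 and an exact permutation p = 0.3 (0.45 adjusted over 3 ratios).

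Nqo1 (ENSMUSG00000003849, minus strand, chr8:107388225-107403206) encodes a quinone reductase that is widely used as a readout of NRF2. Nqo1 had 255, 248 and 300 CPM in the WT mice and 153, 148 and 169 CPM in the Trpm2-/- mice, so the groups were well apart. It fell from 268 ± 28.5 to 156 ± 10.9 CPM, a log2 fold change of -0.78 (SE 0.136, edgeR adjusted p = 0.00750). Nqo1 was called lower in all 17 alternatives that tested it with an adjusted p, with log2 fold changes of -0.83 to -0.69. The call was closest to the threshold without WT 3 (edgeR adjusted p = 0.0499). The 5 members that are classical NRF2 targets thus had log2 fold changes from -0.78 (Nqo1) to 0.56 (Txnrd1), and Nqo1 was the 1 that passed the test.

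**Figure D3:**
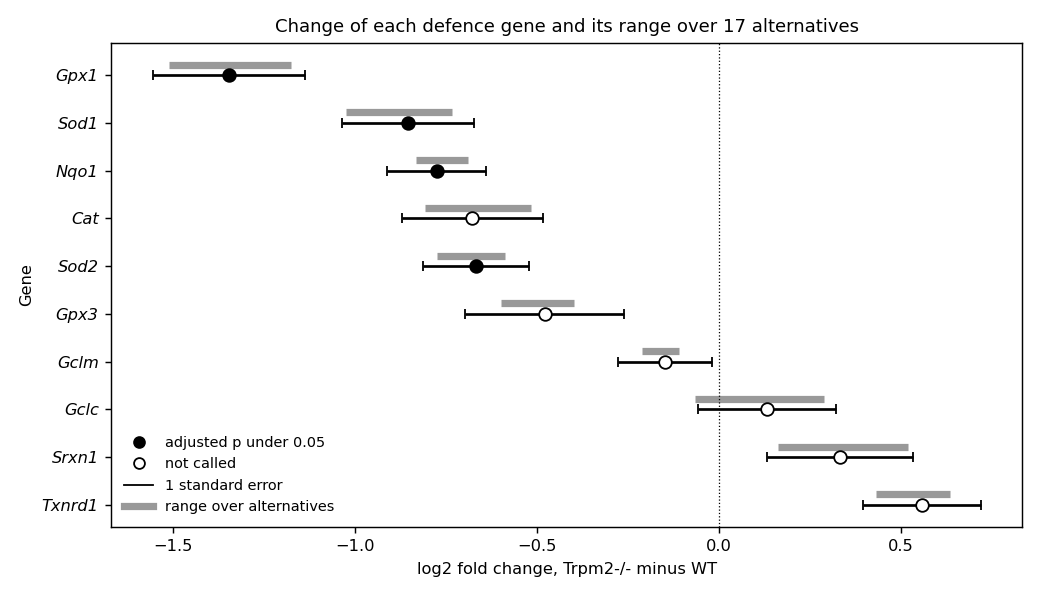
Log2 fold change of each defence gene (Trpm2-/- minus WT) with 1 standard error, from edgeR on the counts of 3 against 3 mice; filled points have an adjusted p under 0.05. Grey bars give the lowest and highest value over 17 alternative analyses, and the bar of Gclc alone crosses 0.

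Several of these genes share the regulator NRF2 in the textbook account. The 250 bases before the start sites of the members were therefore searched for the core of the antioxidant response element. This search was chosen after the expression values were known. RefSeq promoters on GRCm38.p6 were found for 9 of the 10 members, in 11 windows, since Txnrd1 has several start sites. The letters TGACNNNGC occurred on either strand in 3 of the 11 windows (Gclm, Sod1 and Txnrd1) and in 10.2% of 32851 windows of all genes. The looser letters TGANNNNGC, of which the first motif is a special case, occurred in 5 of the 11 windows (Gclm, Sod1, Srxn1 and Txnrd1) and in 35.2% of all windows. The matches are shown to let the spelling be compared, with the match in capitals and the flanks in lower case; on the plus strand of the chromosome a match to the other strand reads GCNNNNTCA.
Srxn1, chr2:152105350-152105390: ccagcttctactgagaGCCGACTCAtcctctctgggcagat
Srxn1, chr2:152105451-152105503: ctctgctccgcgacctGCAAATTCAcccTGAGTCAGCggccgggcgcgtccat
Gclm, chr3:122245407-122245447: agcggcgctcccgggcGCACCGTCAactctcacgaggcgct
Txnrd1, chr10:82859098-82859138: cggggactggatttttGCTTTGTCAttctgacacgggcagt
Txnrd1, chr10:82860241-82860281: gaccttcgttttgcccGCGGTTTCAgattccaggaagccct
Sod1, chr16:90220690-90220730: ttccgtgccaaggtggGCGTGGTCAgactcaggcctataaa
Srxn1 holds 3 matches, more than any other member. The windows of Nqo1, Cat, Gpx1, Gpx3 and Sod2 hold none of these letters, which describes these windows alone. Of the genes with a match, Sod1 fell and Srxn1, Txnrd1 and Gclm were not called. A match is a string of letters and not a measured binding site.

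Levels can be set side by side between genes only per length, in the FPKM values that the authors deposited. In WT kidneys the order from the top was Gpx3 (18349 ± 2643 FPKM), Gpx1 (1768 ± 405), Cat (238 ± 35.1), Srxn1 (181 ± 22.5), Gclc (176 ± 23.5) and Nqo1 (151 ± 15.6), followed by Sod1 (117 ± 15.8), Txnrd1 (77.2 ± 10.6), Gclm (54.1 ± 3.91) and Sod2 (22.3 ± 2.08). The mean FPKM of Gpx3 was 10.4 times that of the next gene and 823 times that of Sod2. Srxn1, Gclc and Nqo1, neighbours in this order, overlapped in range, and the other neighbours did not. In Trpm2-/- kidneys Srxn1 (230 ± 55.3 FPKM) and Gclc (195 ± 41.9) stood above Cat (150 ± 32.3) and Txnrd1 (115 ± 12.1), and the ranges of these neighbours overlapped from Srxn1 to Txnrd1.

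The order depends on the gene length in the deposited table, which counts the exons of all annotated transcripts. For Sod1 that length was 3970 bases, 6.19 times the 641 bases of the principal transcript, and for Txnrd1 it was 2.01 times. With the length of the principal transcript, a rescaling chosen after seeing the data, the WT mean of Sod1 was 724 FPKM and Sod1 stood at place 3, behind Gpx3 and Gpx1. Changes between genotypes are not affected by this length.

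**Figure D4:**
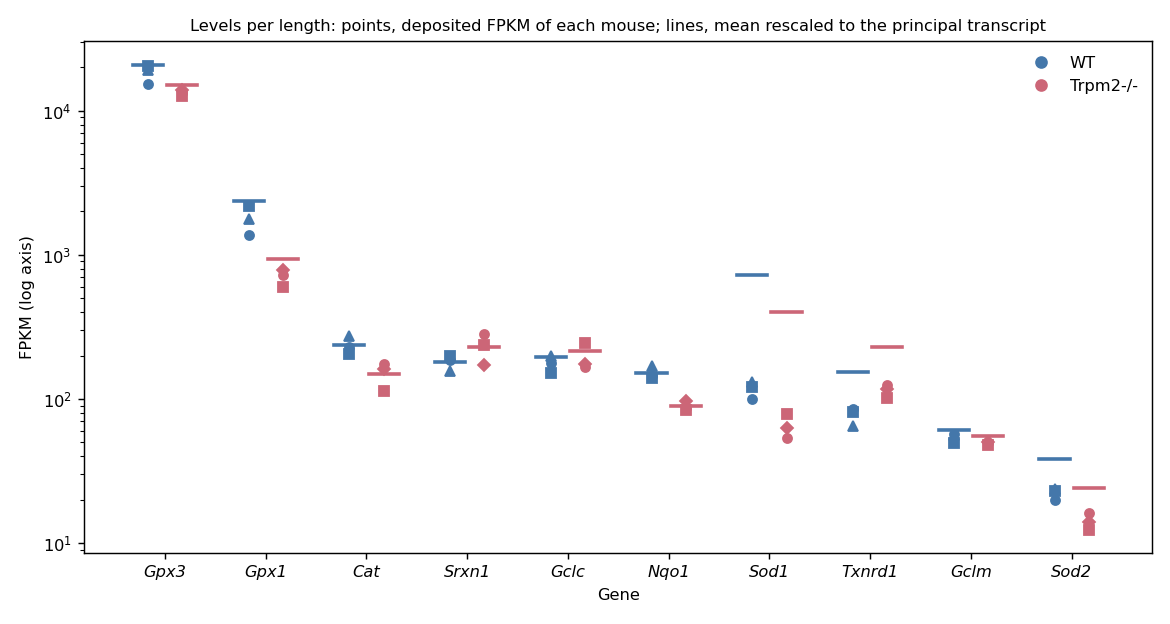
Level of each member per length in FPKM on a log axis, ordered by the WT mean. Points are the deposited values of the 3 WT (blue) and 3 Trpm2-/- (red) mice, and horizontal lines are the means rescaled to the length of the principal transcript; the line of Sod1 lies far above its points (724 against 117 FPKM in WT).

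Other enzymes of the same kind fell too. In a list of 24 other enzymes against superoxide, peroxide and oxidised thiols, 23 were tested, 6 fell (7.28% of all genes did), 0 rose by edgeR and 19 were below 0, with a median log2 fold change of -0.42. Sod3, the extracellular dismutase, had 661 to 719 CPM in WT and 265 to 388 CPM in Trpm2-/- kidneys (log2 fold change -1.12, SE 0.168, edgeR adjusted p = 0.00422). Ccs, the chaperone that loads copper into SOD1, fell along with Sod1, by 1.14 on the log2 scale (edgeR adjusted p = 0.00666). Gpx4, the peroxidase that reduces lipid peroxides in membranes and holds ferroptosis in check, had a log2 fold change of -0.82 (edgeR adjusted p = 0.0246). The methionine sulfoxide reductase gene Msrb1 fell by 1.10, the peroxiredoxin gene Prdx1 by 0.63 and the thioredoxin gene Txn1 by 0.61 on the log2 scale. In 15 genes of the list every Trpm2-/- mouse lay below every WT mouse (16.8% of all genes), and in 1, the thioredoxin reductase gene Txnrd3 (log2 fold change 0.44), every Trpm2-/- mouse lay above (16.7% of all genes). Txnrd3 was the 1 gene of the list that was higher at an unadjusted p under 0.05, and DESeq2 and limma-voom called 0 of the list higher. The count of lower genes was 12 by DESeq2, 10 by edgeR without a filter and 6 by limma-voom, and it was 3 without WT 2, without WT 3 or with a replicate block.

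In a list of NRF2, its partners and its regulators, 0 of 11 genes were called in either direction by edgeR, beside 12.0% of all genes tested, and the median log2 fold change was 0.13. Nfe2l2, which encodes NRF2, had 243, 243 and 213 CPM in the WT mice and 316, 234 and 272 CPM in the Trpm2-/- mice, with overlap (log2 fold change 0.23, SE 0.149, edgeR adjusted p = 0.343). Keap1, its inhibitor, had 38.3 to 40.8 CPM in WT and 26.03 to 42.88 CPM in Trpm2-/- kidneys (log2 fold change -0.17, edgeR adjusted p = 0.567), and without KO 4 the log2 fold change was 0.0079. The small MAF partner Maff had the smallest p of the list, with a log2 fold change of 0.45 (edgeR adjusted p = 0.124). It was the 1 gene of the list at an unadjusted p under 0.05, and DESeq2 and limma-voom called 0 of the list in either direction. Transcript levels do not measure NRF2 protein or its activity.

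Among 25 other NRF2 targets, 8 fell (7.28% of all genes did) and 0 rose by edgeR (4.74% of all genes did). Of the 25, 18 were below 0, and the median log2 fold change was -0.32. The genes with the smallest p were the glutathione transferases Gsta3 (log2 fold change -1.44), Gstm1 (-1.13) and Gstp1 (-0.84) and the carbonyl reductases Cbr1 (-1.14) and Cbr3 (-1.43). Gsta3 had 210 to 280 CPM in WT and 77.4 to 100 CPM in Trpm2-/- kidneys (edgeR adjusted p = 0.00152). Hmox1, which encodes the heme oxygenase that degrades heme, had 181, 167 and 157 CPM in the WT mice and 252, 187 and 273 CPM in the Trpm2-/- mice. The groups did not overlap, but at a log2 fold change of 0.50 Hmox1 was not called (SE 0.163, edgeR adjusted p = 0.0776). At an unadjusted p under 0.05, 3 genes of this list were higher (Hmox1, Slc7a11 and Abcc4). DESeq2 called 1 of the list higher, limma-voom 0 and edgeR without a filter 2. The count of lower genes was 5 without WT 2, without WT 3 or with a replicate block.

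Of 9 genes that make, recycle or break down glutathione, 4 fell and 0 rose by edgeR, DESeq2 and limma-voom alike. Over all genes tested, edgeR called 7.28% lower and 4.74% higher. Of the 9 genes, 0 were higher at an unadjusted p under 0.05. Those that fell by edgeR were Ggt1 (log2 fold change -1.32), the brush border enzyme that cleaves extracellular glutathione, the oxoprolinase gene Oplah (-1.05), the glyoxalase gene Glo1 (-0.57) and the glutathione synthetase gene Gss (-0.55). Glutathione reductase, Gsr, had 263, 307 and 266 CPM in the WT mice and 311, 246 and 213 CPM in the Trpm2-/- mice, with overlap. Of these genes Gss, which catalyses the step after glutamate-cysteine ligase, was closest to the threshold (edgeR adjusted p = 0.0439), and the call was lost in 8 of 17 alternatives. The count of lower genes in the list was 2 without WT 2, WT 3 or KO 4 and with a replicate block.

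Catalase works in peroxisomes beside oxidases that produce hydrogen peroxide, and several of these fell. In a list of 12 peroxisomal oxidases and import factors, 11 were tested and all 11 were below 0. Of these, 6 fell (7.28% of all genes did), and the median log2 fold change was -0.995. Hao2, a hydroxyacid oxidase, had 59.0, 74.8 and 110 CPM in the WT mice and 13.6, 14.3 and 24.97 CPM in the Trpm2-/- mice (log2 fold change -2.20, SE 0.287, edgeR adjusted p = 0.00275). The acyl-CoA oxidases Acox2 (-2.00) and Acox3 (-1.18), the pipecolate oxidase Pipox (-1.36) and the D-amino acid oxidase Dao (-1.33) fell as well. Hao2 and Dao are known from the proximal tubule, whose 10 markers had a summed level, largely Kap, 0.353 times that of WT. The part of that change in these results was not tested.

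**Figure D5:**
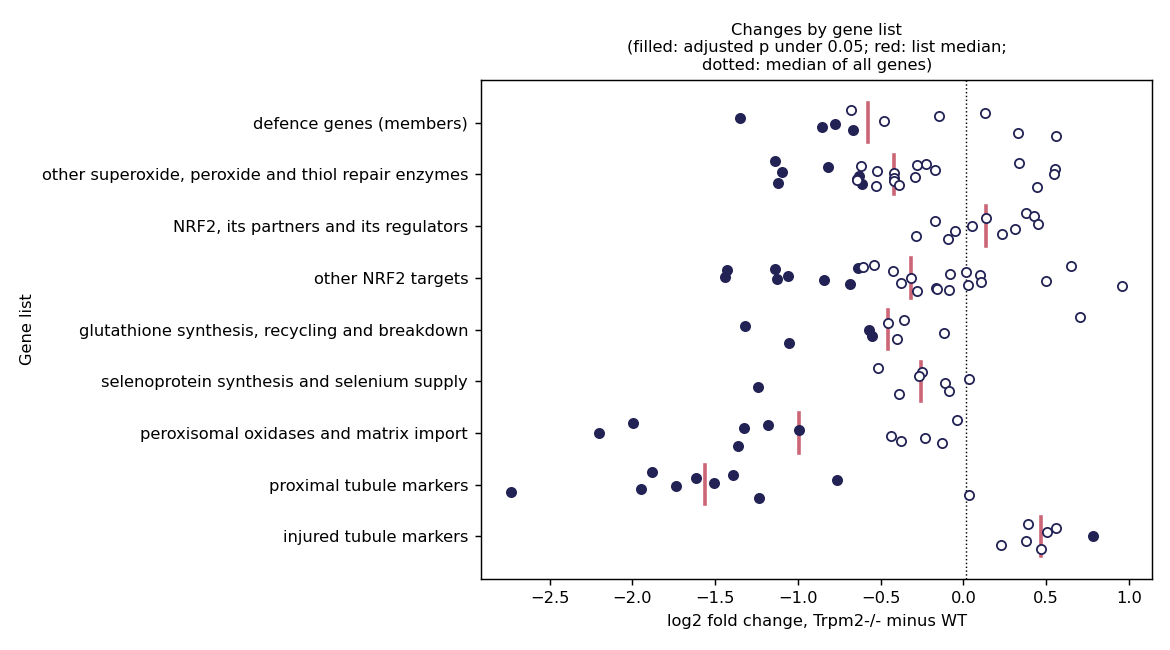
Log2 fold changes (Trpm2-/- minus WT) of the tested genes in 9 lists, 1 point a gene, filled at an edgeR adjusted p under 0.05, with a red line at each list's median and a dotted line at the median of all genes, 0.02. Of the 9 lists drawn, which leave out the other marker lists, proximal tubule markers have the lowest median (-1.56) and injured tubule markers the highest (0.47), with the defence genes at -0.57.

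Selenium is shared by Gpx1, Gpx3 and Txnrd1, so the selenoprotein genes were looked at as a whole, a choice made after the values were seen. The counts below include these members. GENCODE marks 24 genes with a selenocysteine TGA codon, and 21 of them were tested. Of these, 6 fell (7.28% of all genes did) and 0 rose by edgeR (4.74% of all genes did). The median log2 fold change of these selenoprotein genes was -0.30, and 15 were below 0. At an unadjusted p under 0.05, Txnrd1 and Txnrd3 were the 2 that were higher. Those that fell were Gpx1, Gpx4, Msrb1, Sephs2, Selenos and the deiodinase gene Dio1. Sephs2 makes the selenium donor for all selenoproteins and is one itself, and it had 218, 281 and 338 CPM in the WT mice and 127, 108 and 119 CPM in the Trpm2-/- mice (log2 fold change -1.24, SE 0.173, edgeR adjusted p = 0.00343). It was the 1 gene called in a list of 8 genes of selenoprotein synthesis and selenium supply, beside 12.0% of all genes tested. The list's median was -0.26, and 2 of its genes were called lower without KO 2. Selenop, which encodes the carrier of selenium in plasma, had 386, 455 and 434 CPM in the WT mice and 532, 305 and 340 CPM in the Trpm2-/- mice, with overlap.
The codon is shown again in the genes that fell beside Gpx1 and that are named in the lists above, in capitals in the coding strand (GRCm38, GENCODE M21).
Gpx4, chr10:80054716-80054760, plus strand: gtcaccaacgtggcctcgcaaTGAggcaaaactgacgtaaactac
Msrb1, chr17:24740137-24740181, plus strand: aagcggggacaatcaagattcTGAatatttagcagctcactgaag
Sephs2, chr7:127273710-127273754, minus strand: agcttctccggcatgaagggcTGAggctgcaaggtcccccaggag
The codon is number 73 of 197 in Gpx4, number 95 of 116 in Msrb1 and number 63 of 452 in Sephs2.

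For each member the gene with the most similar pattern over the 6 kidneys was found among 9594 tested genes with a mean of at least 10 CPM, as the smallest root mean square difference of centred log2 CPM. The nearest gene to Sod1 was Ndufaf6 (0.0573, against a root mean square of 0.477 for Sod1 itself), an assembly factor of respiratory complex I. The nearest to Sod2 was Pmpcb (0.0416), a subunit of the mitochondrial processing peptidase, and the nearest to Cat was Mcur1 (0.0643), a regulator of mitochondrial calcium uptake. Gpx1 lay nearest to Endog (0.113), a mitochondrial nuclease, Gpx3 to Lin52 (0.0517) and Nqo1 to Xylb (0.0663), a xylulose kinase. Txnrd1 lay nearest to Kansl1 (0.0534), Srxn1 to Tmem43 (0.0520), Gclc to the cysteinyl-tRNA synthetase gene Cars (0.0496) and Gclm to the chaperone gene Calr (0.0306). These likenesses describe the 6 kidneys and carry no test.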

How the data were processed

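Kidney RNA was isolated with Trizol, made into NEBNext Ultra II libraries and sequenced on an Illumina HiSeq instrument. The authors deposited raw counts per gene and FPKM values, which they made from the counts with the gene length and a library total, in 1 column for each of 6 mice; 0 columns were left unused. The submitters' processing notes name HISAT2, StringTie and mm9, yet 98.33% of 54409 gene identifiers have the same start and end in the table as in the GRCm38 annotation (GENCODE M21), so positions are given on GRCm38. Strandedness is not given in the sources used here. The labels give an age of 6 to 8 weeks and the study's methods 8 to 10 weeks, male mice.

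Counts were tested in R 4.3.3 with edgeR 4.0.16: filterByExpr, TMM, a two-sided quasi-likelihood test on genotype (3 against 3 mice, common dispersion 0.0445) and Benjamini-Hochberg adjustment over 15816 genes. The SE of a log2 fold change is its size over the root of the F value. Between replicates of a genotype the chi-square of counts per degree of freedom was 14.7 to 20.5 for WT and 35.7 to 40.8 for Trpm2-/- mice, so no 2 libraries were the same. A count of 3, the floor for detection, was worth 0.175 to 0.213 CPM, and depth limits none of the members. Ratios of FPKM were compared with exact permutation tests. Scripts were tested on simulated data.

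Named genes were all members, up to 5 genes with the smallest adjusted p under 0.05 in each pathway list (or the gene with the smallest p), Nfe2l2, Keap1, Trpm2 and the nearest gene of each member. Txn1, Txnrd3, Hmox1, Slc7a11, Abcc4, Gsr, Selenop, Dio1, Selenos, Krt20, Slc4a4, Kap, C1qa and Scaf4 were named after their values were seen. The members and lists were chosen with earlier results of these data known.

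Alternatives were edgeR with DESeq2's size factors, with upper quartile, without a filter or with a mean of at least 1 CPM, DESeq2 1.42.0, limma-voom (limma 3.58.1), limma on log2(FPKM + 1) and log2(FPKM + 0.1) at a mean FPKM of at least 1, the mitochondrial genome or the top 20 genes left out, a replicate block, each mouse left out, and a call rule of fold above 2 with an unadjusted p under 0.05. Of the other marker lists, 5 genes of distal tubule held 1 lower, 6 of collecting duct 2 lower and 8 of macrophage 1 lower (C1qa). By edgeR, none was called in the lists of podocyte, endothelial, neutrophil, adrenal and fat genes. In those lists, 2 podocyte genes and 1 neutrophil gene were higher at an unadjusted p under 0.05. In the macrophage list, 2 genes were higher and 2 lower at an unadjusted edgeR p under 0.05. Over all genes tested, edgeR called 7.28% lower and 12.0% in either direction.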

Additional observations from a re-analysis of the deposited data

How the results depend on the processing

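Of the calls on named genes over the alternatives, 678 kept their direction and side of the threshold, 51 lost the call, 11 gained it and 5 changed sign. The main test called 4 members lower and 0 higher. Upper quartile scaling, no filter, a mean of at least 1 CPM, DESeq2 and limma-voom each gave 1 higher (Txnrd1). DESeq2 gave 6 lower, and limma-voom and no filter gave 5 lower each. The replicate block gave 2 lower and the fold rule 1 lower. Leaving out 1 mouse gave 2 to 4 lower and 0 to 1 higher. Over all genes, against 750 higher and 1152 lower, no filter gave 1262 higher, limma on log2(FPKM + 1) 481 higher, on log2(FPKM + 0.1) 482 higher, the block 341 higher and 661 lower, and the fold rule 649 lower. Leaving out 1 mouse gave 160 to 819 higher and 470 to 1240 lower, both lowest without WT 3. In the pathway lists together, against 25 lower and 0 higher, the block and the fold rule each gave 16 lower. No filter gave 2 higher and 30 lower, and DESeq2 1 higher and 33 lower. Leaving out 1 mouse gave 15 to 26 lower and 0 to 3 higher. With 1 mouse left out, log2 fold changes turned sign without KO 2 for Gclc (-0.066 to 0.23) and Cars (-0.064 to 0.24), without KO 4 for Keap1 (-0.35 to 0.0079) and without WT 1 or WT 2 for Trpm2 (-0.024 to 1.61), and the log2 ratio of Sod2 to Sod1 turned without KO 1 (-0.035 to 0.43). The log2 ratio of mean Gclm levels was -0.14 in FPKM and -0.020 in TPM. The causes of these shifts were not tested.

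Replicate numbers 1 and 2 occur in both genotypes, and the deviations of same-numbered mice correlated at 0.0641 and -0.012 over genes. The labels do not say whether same-numbered mice were handled together. Correlations from 3 mice a genotype cannot decide it, so the block is not taken as a pairing of animals. Sod1 and Sod2 lost their calls under the replicate block (edgeR adjusted p = 0.0584 and 0.121). Upper quartile scaling raised the share of higher calls from 39.4% to 46.6%. With 3 mice a genotype and no untreated kidney, differences present before cisplatin cannot be told apart from those after it.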
